A study of Arabidopsis thaliana with 9 samples.

Results

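A set of 60 genes was examined that were lower with 2'-aminoacetophenone (2-AA) while their mean level with flg22 stayed near that of mock. They were 60 of the 32833 loci counted in whole seedlings of Arabidopsis thaliana. Levels are read counts per 1e6 counts of a library (CPM), with library sizes scaled by trimmed-mean (TMM) factors. The members were chosen by these CPM values: a gene was kept if its mock mean was at least 5 CPM, its 2-AA mean was at most 0.6 of the mock mean, its flg22 mean was between 0.8 and 1.25 of the mock mean, and each of the 3 2-AA libraries was below each of the other 6. All 9 libraries entered the choice, and the members' own differences between groups are given as descriptions, with no test.

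Bulk RNA sequencing had been made from wild-type Col-0 seedlings, grown for 5 days on solid half-strength MS medium and for 5 more days in the same medium as a liquid. The groups were 2-AA at 200 uM, the flagellin peptide flg22 at 100 nM, and mock, with 3 libraries each. All groups shared genotype, ecotype and medium, and the treatment is described as a solution in water. Mock seedlings are labelled as not treated, and no source used here states how long the treatment lasted. The 3 libraries of a group are called biological replicates without a statement on separate cultures, so that a p-value here weighs a difference against the spread of these libraries, which may be technical. In bulk RNA of whole seedlings, fewer cells of a type and less RNA per cell cannot be told apart.

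2-AA is a volatile ketone whose production in the bacterium Pseudomonas aeruginosa is under quorum sensing. flg22 is the conserved stretch of bacterial flagellin that the receptor kinase FLS2 binds, and it sets off pattern-triggered immunity. Several of the 60 genes belong to the route that leads from the shikimate pathway through phenylalanine to lignin monomers, sinapate esters and coumarins. In that route 4-coumarate:CoA ligases activate hydroxycinnamic acids, later enzymes hydroxylate and methylate the ring, and MYB factors bind AC-rich elements in the promoters of many of its genes.

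AC elements were searched upstream because they are the known shared feature of promoters in this route. The letters were ACCTACC (AC element I) and ACCAACC (AC element II), on both strands, in the 250 bases before the annotated start of each gene in the RefSeq annotation of the TAIR10.1 assembly. Either element was found in 7 of the 60 genes, which is 11.7%, against 3.94% of all genes with a mock mean of at least 5 CPM and 3.90% of all genes tested. The matches in 6 of these genes are printed 5′ to 3′ on the strand of the gene with their flanks, with the element in capitals.
4CL2 (AC element II, gene strand, 140 bases before the start, chr3:7457527-7457555, minus strand): tagagtagctcACCAACCcctacatgaac
4CL2 (AC element II, gene strand, 31 bases before the start, chr3:7457418-7457446, minus strand): aataacatttcACCAACCacaaattcttt
AT4G32800 (AC element II, gene strand, 73 bases before the start, chr4:15819405-15819433, plus strand): acattatacacACCAACCtcgtagataat
PMSR2 (AC element II, gene strand, 209 bases before the start, chr5:2362420-2362448, minus strand): caaacgtgcccACCAACCtacaagttgca
AT4G38690 (AC element I, gene strand, 175 bases before the start, chr4:18076115-18076143, minus strand): aacaaaaatggACCTACCatacattgtaa
AT4G22212 (AC element I, other strand, 127 bases before the start, chr4:11753704-11753732, plus strand): accaaataataGGTAGGTgagtggatgcc
AT1G47480 (AC element II, other strand, 99 bases before the start, chr1:17417382-17417410, plus strand): agttttcgattGGTTGGTggcatcattaa
A match is a description of these letters and no evidence of binding. 4CL2 held the element at both of its positions on its own strand, and its upstream stretch runs into the neighbouring gene ABCC8, which ends 28 bases before the start. The match at 140 bases lies within the annotated span of ABCC8, and the match at 31 bases overlaps its end. The gene list for phenylpropanoid and lignin enzymes showed the element in 9 of the 27 tested genes that were not among the 60 (33.3%), and in 4CL2 among its 3 members of the 60.

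CSE and OMT1, the other members of that list, held neither element in the same window. Their stretches are shown whole, in lower case throughout.
CSE (chr1:19650922-19651171, plus strand): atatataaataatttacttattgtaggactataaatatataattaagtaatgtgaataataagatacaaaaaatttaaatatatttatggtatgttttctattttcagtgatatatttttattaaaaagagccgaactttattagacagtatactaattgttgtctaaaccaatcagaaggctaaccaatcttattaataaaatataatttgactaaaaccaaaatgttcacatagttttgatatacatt
OMT1 (chr5:21981652-21981901, plus strand): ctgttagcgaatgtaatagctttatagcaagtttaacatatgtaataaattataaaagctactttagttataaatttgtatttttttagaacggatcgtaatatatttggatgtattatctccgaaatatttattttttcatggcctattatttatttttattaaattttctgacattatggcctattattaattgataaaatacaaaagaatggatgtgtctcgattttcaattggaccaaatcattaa
Of 18 motifs searched in these windows, the site II element TGGGCC, which TCP factors bind, stood in 2 of the 60 genes (3.33%), against 18.2% of genes with a mock mean of at least 5 CPM. The W-boxes TTGACC or TTGACT, bound by WRKY factors, stood in 22 of the 60 (36.7%), against 27.7%. The TATA box TATAAA stood in 32 of the 60 (53.3%), against 45.8%. The GCC box GCCGCC and the E2F site TTTCCCGC were in 0 of the 60, against 1.90% and 0.643% of those genes.

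Most genes with a low 2-AA mean also had a low flg22 mean. A total of 2739 genes with a mock mean of at least 5 CPM had a 2-AA mean of at most 0.6 of mock. In 2136 of them (78.0%) the flg22 mean was also at most 0.6 of mock, and in 530 (19.4%) it was between 0.6 and 0.8. In 68 genes (2.48%) the flg22 mean lay in the window, and in 5 it lay above it. Demanding that no 2-AA library reach any other library left 60 genes (2.19%). That order of libraries alone held in 10.3% of all genes with a mock mean of at least 5 CPM and in 8.69% of all genes tested. The same rule with the agents exchanged gave 35 genes.

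**Figure D1:**
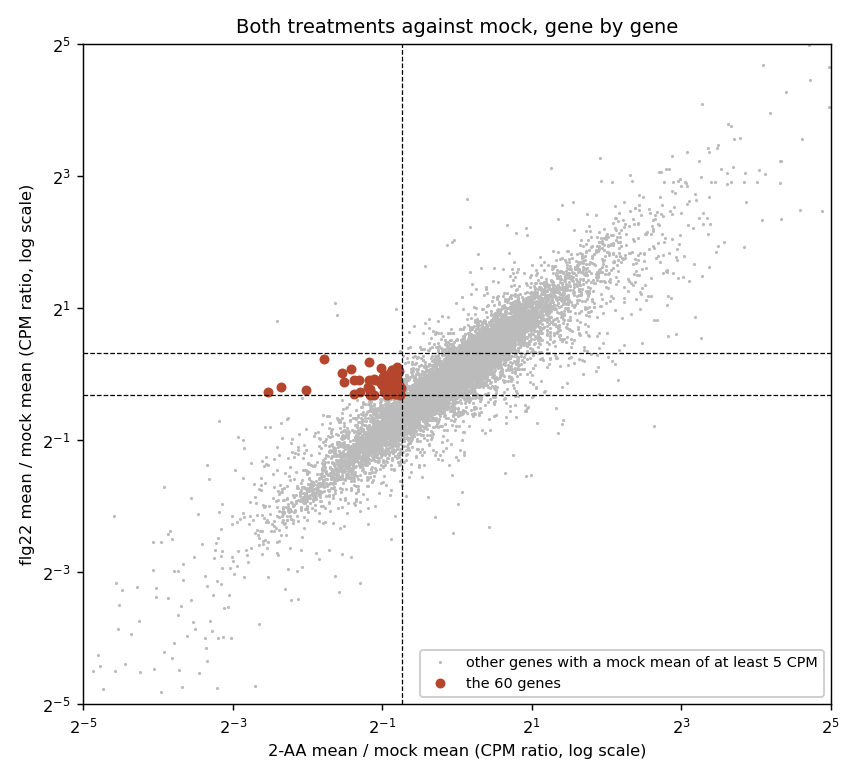
Ratio of the 2-AA mean to the mock mean (x axis, log scale) and of the flg22 mean to the mock mean (y axis, log scale) for genes with a mock mean of at least 5 CPM, with the 60 genes in red and dashed lines at the limits of the rule. The grey cloud runs along the diagonal, and the 60 genes sit left of it, between 0.174 and 0.597 on the x axis.

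Mock means of the 60 ran from 5.06 to 547 CPM, with a median of 25.5 CPM. The counts behind the values differ accordingly, with 15 genes under 10 CPM in mock and 10 genes at or over 100 CPM. The 2-AA mean was under 0.3 of mock in 4 genes (GASA6, F6'H1, 4CL2 and AT4G15390), under 0.5 in 24 and at least 0.5 in 36. The median ratio to mock was 0.525, and the median ratio to flg22 was 0.562.

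The flg22 side of the rule was looser than the label of a change by 2-AA alone. The flg22 mean was below the mock mean in 50 of the 60 genes and above it in 10, and 35 genes had a ratio between 0.8 and 0.9. The flg22 and mock libraries overlapped in 50 genes, where the share over all genes with a mock mean of at least 5 CPM was 27.4%. In 9 genes all flg22 libraries were below all mock libraries (CSE, BGLU46, OPT7, YSL2, FRO7, AT3G05180, AT2G35130, AT4G01580 and AT2G39420), and in PMSR2 all were above. Over all those genes, these orders held in 38.2% and 34.4%. The flg22 window of the rule favours overlap, and nothing is read from these counts. Against all genes, edgeR's quasi-likelihood fit with Benjamini-Hochberg adjustment under 0.05 called 62.2% of the 21059 genes tested in 2-AA against mock (31.1% as lower), 15.8% in 2-AA against flg22 (7.89% as lower), and 59.2% in flg22 against mock (29.4% as lower and 29.8% as higher). Of the members, 60 were called lower in 2-AA against mock and 58 lower in 2-AA against flg22, which the rule itself favoured. In flg22 against mock, 11 were called, each of them lower: XPL1, SNG1, CSE, BGLU46, OPT7, GATA4, AT3G05180, AT2G35130, YSL2, FRO7 and AT2G39420. That last count was 6 without mock replicate 2, and 5 without flg22 replicate 1 or without flg22 replicate 3. The number of all genes called in 2-AA against flg22 was 3317, and 2204 without 2-AA replicate 2.

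Each library in turn was set aside, the rule was applied to the other 8, and the library set aside was then read in the genes so chosen. Of 70 genes chosen without 2-AA replicate 1, 95.7% had that library below all 6 of the others. For 2-AA replicate 2 it was 89.9% of 69 genes, and for 2-AA replicate 3 it was 91.9% of 86 genes. Over all genes with a mock mean of at least 5 CPM, those libraries were below all flg22 and mock libraries in 19.6%, 24.3% and 18.0% of genes. A flg22 or mock library set aside was above all 2-AA libraries in 91.6 to 100.0% of the genes chosen without it, against 32.6 to 45.5% of all genes. The genes had been chosen for the same order in the other 8 libraries, while all genes include those not lower with 2-AA. High shares were thus favoured by the choice, and nothing is read from the contrast. The make-up of the set moved more: between 45 and 57 of the 60 genes were chosen again.

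**Figure D2:**
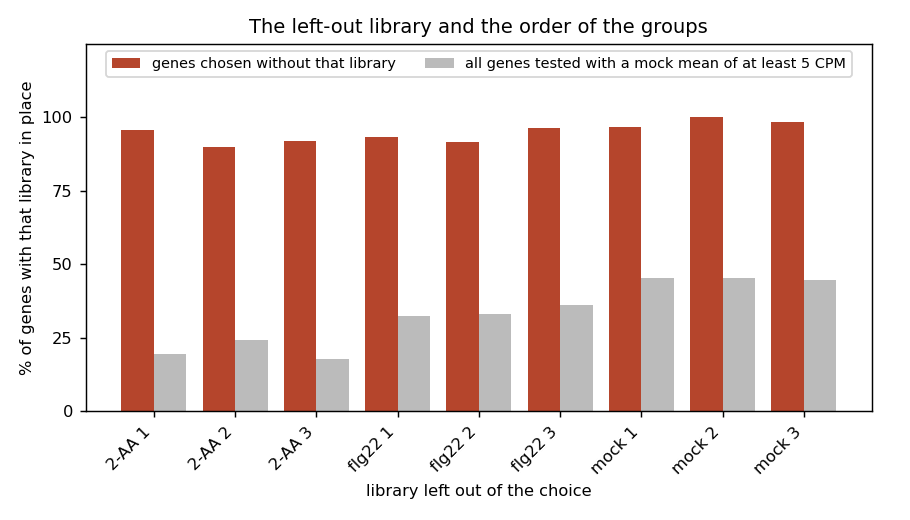
Share of genes (y axis, %) in which a library left out of the choice (x axis) fell on the side of the other groups where the rule would need it, for genes chosen without it (red) and for all genes with a mock mean of at least 5 CPM (grey). Red bars run from 89.9 to 100.0% and grey bars from 18.0 to 45.5%. The choice by the other libraries favoured high red bars.

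Library totals ran from 26644996 to 33195007 counts, and no count in a gene allowed a level of up to 0.114 CPM in the shallowest library, for counting error only. The share of chloroplast-encoded reads was higher in 2-AA replicate 2 (0.241%), flg22 replicate 2 (0.0743%) and mock replicate 3 (0.0980%) than in the other libraries (0.0211 to 0.0281%). Without those 3 libraries the rule gave 67 genes, of which 34 were among the 60. The members varied more between libraries of a group than other genes did: their median coefficient of variation was 11.5% with 2-AA, 12.4% with flg22 and 10.9% in mock, against 6.80%, 7.29% and 6.56% over genes with a mock mean of at least 5 CPM. Leaf and root markers were both present, with RBCS1A at 12170 to 15490 CPM and the root-specific beta-glucosidase PYK10 at 1206 to 2023 CPM.

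**Figure D3:**
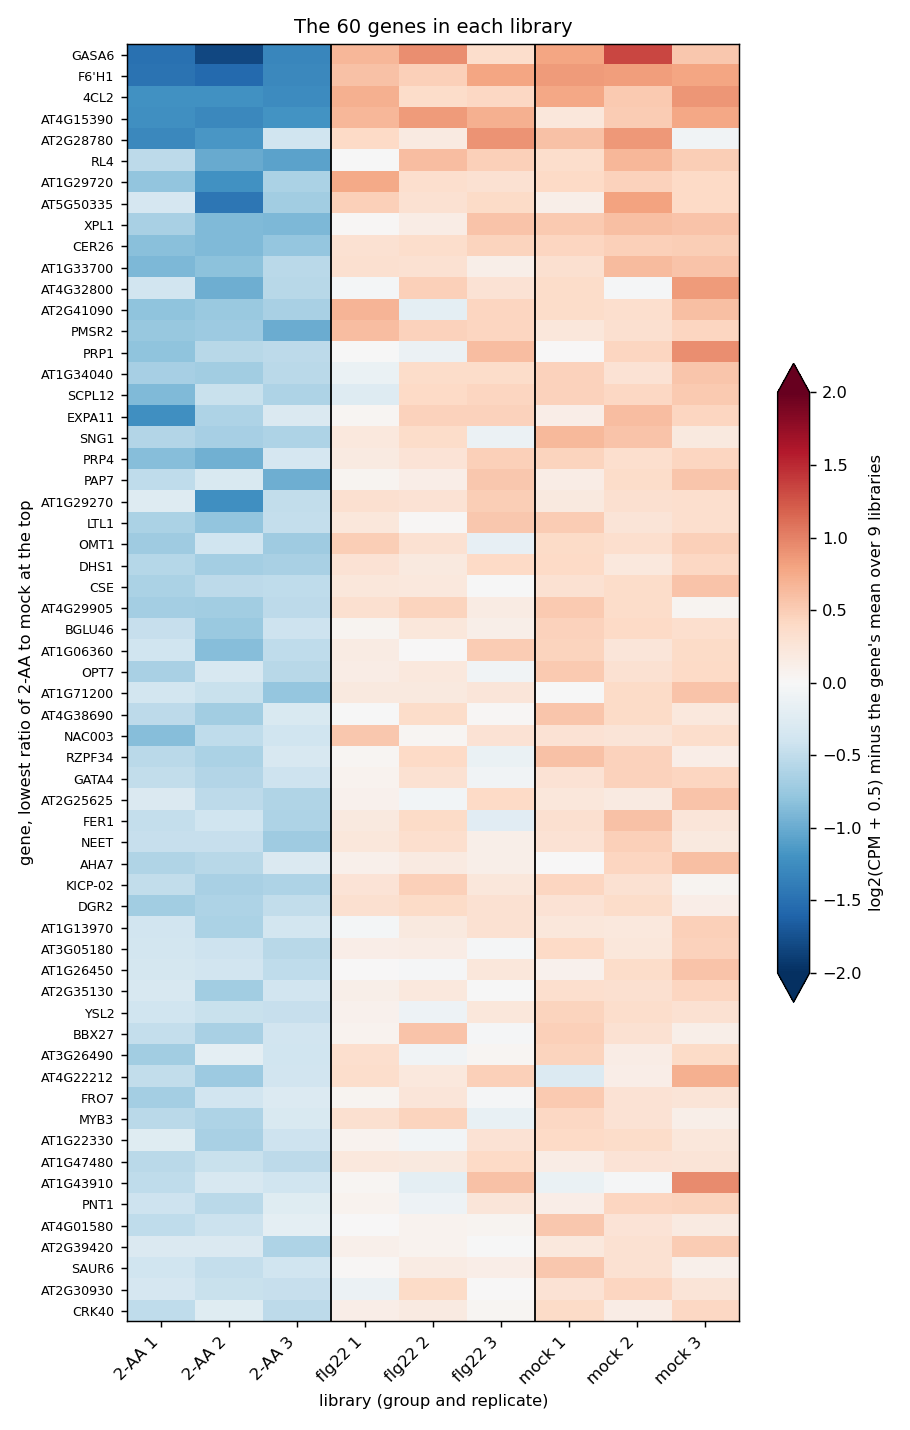
Each of the 60 genes (rows, lowest 2-AA to mock ratio at the top) in each library (columns), as log2(CPM + 0.5) minus the mean of the gene over 9 libraries, blue for below and red for above. The 3 2-AA columns are blue throughout, and the flg22 and mock columns are mostly red with single pale or blue cells, such as OMT1 in flg22 replicate 3.

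The shikimate and phenylpropanoid members, low with 2-AA by the rule, are given from the entry of the route to its late steps. DHS1 encodes a DAHP synthase, the first enzyme of the shikimate pathway. It had 76.8, 71.5 and 72.7 CPM in the 2-AA libraries, 140.0, 132 and 152 CPM in the flg22 libraries and 151, 133 and 154 CPM in the mock libraries. The 2-AA libraries lay close together and far below the rest, and flg22 and mock overlapped. Its log2 difference was -0.99 ± 0.08 (SE) in 2-AA minus mock and -0.04 ± 0.07 in flg22 minus mock. DHS2, a second DAHP synthase and no member, went the other way: it rose by 0.92 ± 0.06 (log2, SE, n = 3 each) in 2-AA over mock (edgeR adjusted p = 3.66e-08) and by 0.89 ± 0.06 in flg22 over mock (edgeR adjusted p = 6.85e-08).

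4CL2 (AT3G21240), a 4-coumarate:CoA ligase, had 8.2, 8.27 and 7.99 CPM in the 2-AA libraries, 32.7, 25.5 and 26.3 CPM in the flg22 libraries and 34, 28.7 and 36.7 CPM in the mock libraries. These means, 8.15 ± 0.146 CPM with 2-AA, 28.2 ± 3.96 CPM with flg22 and 33.1 ± 4.04 CPM in mock (SD, n = 3 each), put the 2-AA level at 0.246 of mock. No 2-AA library came near the others, and the flg22 and mock libraries overlapped. CSE, caffeoyl shikimate esterase, had 59.9, 64.3 and 64.9 CPM in the 2-AA libraries, 109, 107 and 92.1 CPM in the flg22 libraries and 115, 120.0 and 138 CPM in the mock libraries. Here the flg22 libraries lay between the 2-AA and the mock libraries and overlapped with neither. OMT1, the caffeic acid O-methyltransferase of S-lignin and sinapate synthesis, had 252, 313 and 252 CPM in the 2-AA libraries, 582, 508 and 367 CPM in the flg22 libraries and 540.0, 524 and 576 CPM in the mock libraries. The flg22 libraries of OMT1 were scattered, and flg22 replicate 3 was nearer to the 2-AA libraries than to mock.

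BGLU46, a beta-glucosidase that releases monolignols from their glucosides, and MYB3, an R2R3-MYB repressor of phenylpropanoid genes, were named after their values were seen. BGLU46 had 11.5, 9.45 and 12 CPM in the 2-AA libraries, 16.8, 18.8 and 17.5 CPM in the flg22 libraries and 22.4, 21.4 and 20.5 CPM in the mock libraries. MYB3 had 6.89, 6.55 and 8.23 CPM in the 2-AA libraries, 13, 14.2 and 9.2 CPM in the flg22 libraries and 13.9, 12.7 and 11.2 CPM in the mock libraries, so that flg22 replicate 3 lay close above the highest 2-AA library. A repressor of the route was thus low in the same libraries as its enzymes.

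**Figure D4:**
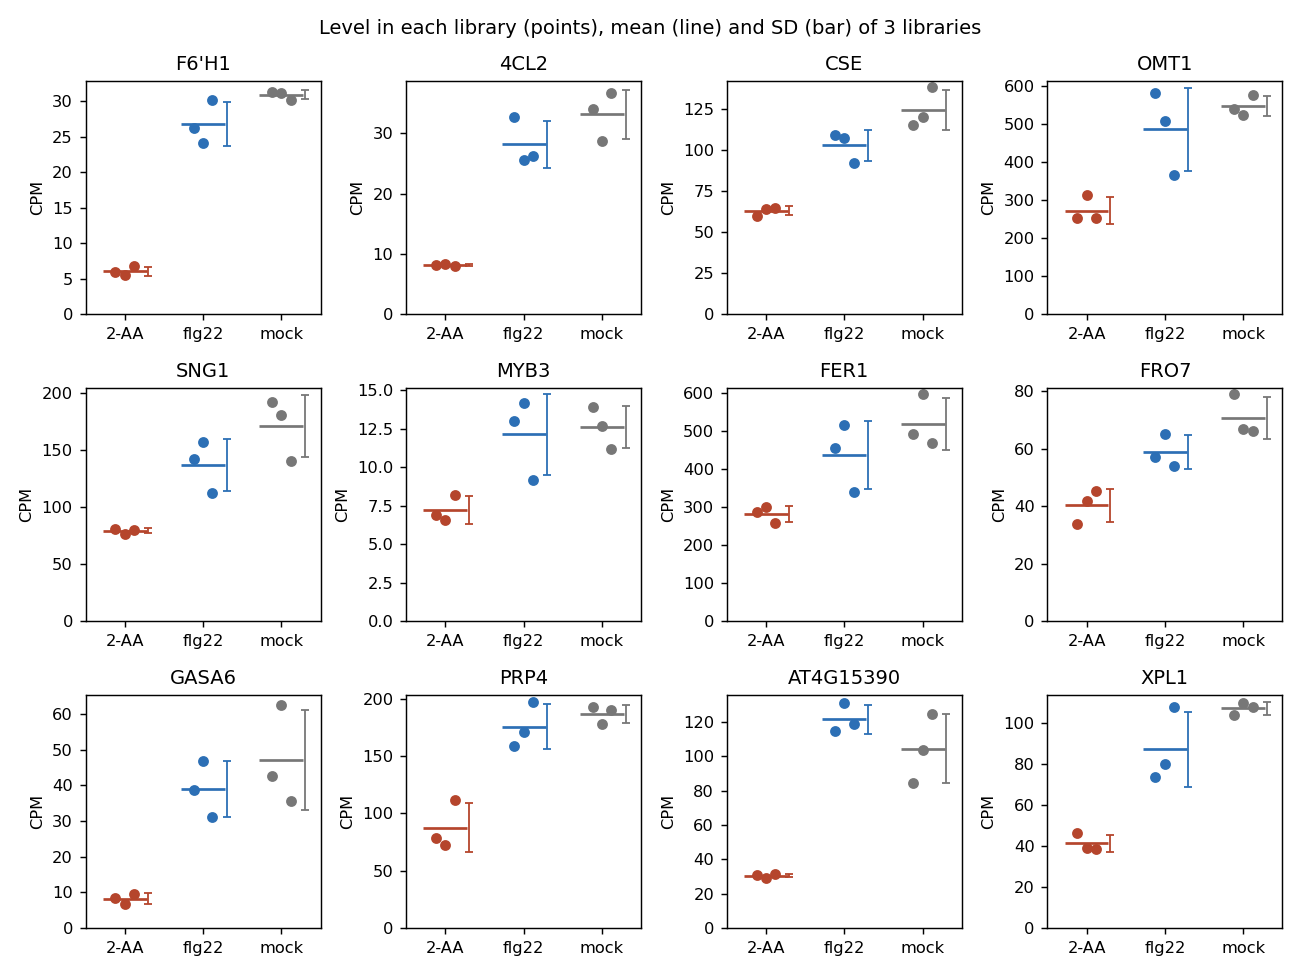
Level in CPM (y axis, from 0) of 12 of the 60 genes in each library (points), with the mean (line) and SD (bar) of the 3 libraries of each group. Every 2-AA point is below every other point of its panel, while the flg22 and mock points overlap in most panels and not in CSE and FRO7.

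A list of 31 phenylpropanoid and lignin genes, 30 of them tested, set the 3 members of it among their pathway. Outside the 60, 27 genes of the list were tested. In 2-AA against mock, 20 of the 27 were called lower and 2 higher, with a median log2 difference of -0.78. In 2-AA against flg22, 15 were called lower and 5 higher, with a median of -0.60. In flg22 against mock, 19 were called lower and 1 higher, with a median of -0.72. The median over all genes tested was -0.00 in 2-AA against mock, -0.01 in 2-AA against flg22 and -0.00 in flg22 against mock. Of all genes tested, 31.1% were called lower in 2-AA against mock, 7.89% in 2-AA against flg22 and 29.4% in flg22 against mock. Called higher were 31.2%, 7.86% and 29.8%. Summed over the 31 genes, the list had 1756 to 1927 CPM with 2-AA, 2668 to 3374 CPM with flg22 and 4202 to 4851 CPM in mock. Most of the listed route thus fell with both agents, and 15 of the 27 genes were lower with 2-AA than with flg22.

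4CL1, a 4-coumarate:CoA ligase like 4CL2, had 39.9, 42 and 37.9 CPM in the 2-AA libraries, 150.0, 129 and 118 CPM in the flg22 libraries and 297, 246 and 319 CPM in the mock libraries, and the 3 groups did not overlap. Its log2 difference was -2.85 ± 0.11 (edgeR adjusted p = 3.49e-10) in 2-AA minus mock, -1.73 ± 0.11 (edgeR adjusted p = 5e-07) in 2-AA minus flg22 and -1.12 ± 0.10 (edgeR adjusted p = 8.43e-07) in flg22 minus mock, with SE and n = 3 each. C4H, cinnamate hydroxylase, had 192, 198 and 180.0 CPM in the 2-AA libraries, 492, 415 and 352 CPM in the flg22 libraries and 565, 487 and 599 CPM in the mock libraries. It fell, with a log2 difference of -1.53 ± 0.11 (edgeR adjusted p = 6.55e-08) in 2-AA minus mock and of -1.14 ± 0.11 (edgeR adjusted p = 1.76e-05) in 2-AA minus flg22. Its flg22 minus mock difference was -0.39 ± 0.11 (edgeR adjusted p = 0.00716), and it missed the threshold without the 3 libraries rich in chloroplast reads (-0.31, adjusted p = 0.077). PAL2, a phenylalanine ammonia-lyase, differed by -2.40 ± 0.08 (edgeR adjusted p = 1.14e-10) in 2-AA minus mock by -0.95 ± 0.08 (edgeR adjusted p = 4.03e-06) in 2-AA minus flg22 and by -1.45 ± 0.08 (edgeR adjusted p = 5.61e-09) in flg22 minus mock.

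FAH1, ferulate hydroxylase on the way to sinapate and S lignin, had its flg22 libraries near mock as well. It had 75.8, 80 and 85.7 CPM in the 2-AA libraries, 143, 119 and 108 CPM in the flg22 libraries and 146, 125 and 129 CPM in the mock libraries. Its difference was -0.73 ± 0.10 (edgeR adjusted p = 2.57e-05) in 2-AA minus mock and -0.11 ± 0.10 (edgeR adjusted p = 0.342) in flg22 minus mock, with SE and n = 3 each. In the fit without flg22 replicate 1, that flg22 difference was -0.23 (edgeR adjusted p = 0.0454). 4CL5, which lies next to 4CL2, had 7.15, 9.03 and 6.94 CPM in the 2-AA libraries, 17.2, 16.8 and 14.8 CPM in the flg22 libraries and 9.84, 9.34 and 10.9 CPM in the mock libraries. It rose with flg22, by 0.70 ± 0.12 (edgeR adjusted p = 0.000312), and was lower with 2-AA than with flg22, with a difference of -1.08 ± 0.13 (edgeR adjusted p = 8.67e-05). Against mock, the 2-AA difference of 4CL5 was -0.38 ± 0.13 (edgeR adjusted p = 0.0187), and it missed the threshold without mock replicate 3, 2-AA replicate 1 or 2-AA replicate 3 (adjusted p = 0.0792, 0.0688 and 0.0735). The 5 genes higher with 2-AA than with flg22 were CAD1, ELI3-1 and ELI3-2, of the cinnamyl alcohol dehydrogenase family, and the laccase genes IRX12 and LAC17. The call of LAC17 (0.54, edgeR adjusted p = 0.0353) was lost in the fit without any one of the 2-AA or flg22 libraries (edgeR adjusted p = 0.0506 to 0.149), without the 3 libraries rich in chloroplast reads (0.253) and with limma-voom (0.0785). IRX12 was higher with 2-AA than with flg22, by 0.58 ± 0.10 (edgeR adjusted p = 0.00198), and CAD1 was higher with 2-AA than in mock as well, by 1.20 ± 0.08 (edgeR adjusted p = 1.88e-08).

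**Figure D5:**
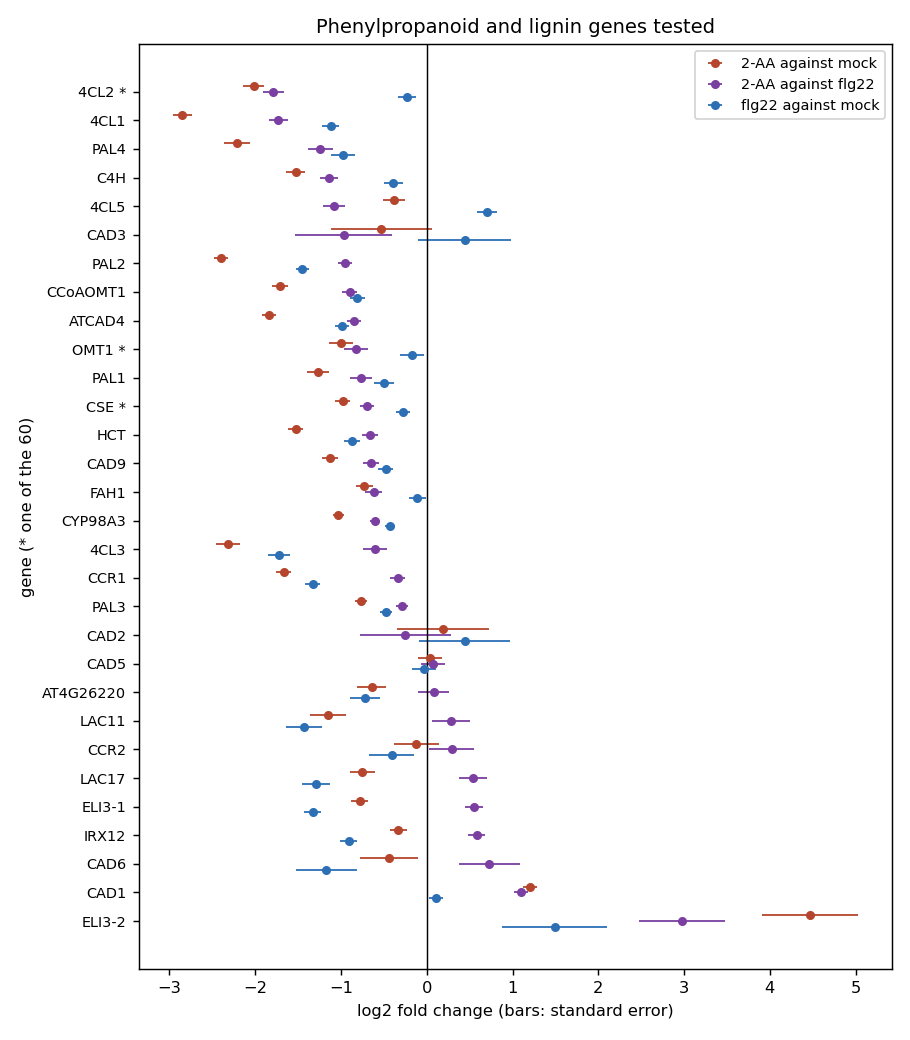
Log2 fold change (x axis, bars SE, n = 3 libraries a group) of the 30 tested phenylpropanoid and lignin genes (rows), for 2-AA against mock (red), 2-AA against flg22 (purple) and flg22 against mock (blue), with an asterisk at the members of the 60. In 4CL2, OMT1 and CSE the blue points lie between -0.28 and -0.17, and the red points between -2.02 and -0.98.

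Of 23 flavonoid and anthocyanin genes tested, none was among the 60. Of these, 14 were called lower and 6 higher in 2-AA against mock, 14 lower and 7 higher in flg22 against mock, and 1 lower and 1 higher in 2-AA against flg22 (edgeR). The shares over all genes tested were 31.1% lower and 31.2% higher in 2-AA against mock. They were 29.4% and 29.8% in flg22 against mock, and 7.89% and 7.86% in 2-AA against flg22.

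F6'H1 (AT3G13610), feruloyl-CoA hydroxylase, makes the precursor of the coumarin scopoletin, which roots secrete when iron is short. It had 5.9, 5.52 and 6.78 CPM in the 2-AA libraries, 26.3, 24.1 and 30.2 CPM in the flg22 libraries and 31.4, 31.2 and 30.2 CPM in the mock libraries. The highest 2-AA library was far below the lowest flg22 library, and flg22 and mock overlapped. The 2-AA mean was 0.196 of mock, with a log2 difference of -2.35 ± 0.11 (SE) in 2-AA minus mock. A gene on the other strand, AT3G13620, overlaps its span and had 11.2 CPM with 2-AA, 8.39 CPM with flg22 and 11.5 CPM in mock. No source used here states whether counting used strand, so reads of such pairs cannot be told apart.

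Further members are named for holding, moving or reducing iron, and OPT7, annotated only as an oligopeptide transporter, is given beside them. FER1, a plastid ferritin that stores iron, had 286, 301 and 258 CPM in the 2-AA libraries, 455, 515 and 339 CPM in the flg22 libraries and 493, 597 and 468 CPM in the mock libraries. FRO7, the ferric reductase of chloroplasts, had 33.9, 41.8 and 45.2 CPM in the 2-AA libraries, 57.2, 65.2 and 53.8 CPM in the flg22 libraries and 78.9, 66.8 and 66 CPM in the mock libraries. NEET, an iron-sulfur protein of plastids and mitochondria, had 28.9, 28.9 and 24.3 CPM in the 2-AA libraries, 47.1, 50.8 and 43.8 CPM in the flg22 libraries and 49.1, 56.2 and 45.8 CPM in the mock libraries. In each the 2-AA libraries stood clear of the rest, and in FRO7 the flg22 libraries were also all below mock. YSL2, a transporter of the iron-nicotianamine family, averaged 27.1 ± 0.735 CPM with 2-AA, 39.1 ± 4.46 CPM with flg22 and 47.9 ± 2.49 CPM in mock (SD, n = 3 each). OPT7, an oligopeptide transporter, had 14.1, 17.8 and 15 CPM in the 2-AA libraries, 24.7, 25.8 and 21.3 CPM in the flg22 libraries and 32.1, 27.8 and 29.6 CPM in the mock libraries. YSL2 and NEET were named after their values were seen.

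Against mock, their relatives did not move as a family. FER4, another ferritin, rose with flg22 by 1.23 ± 0.09 (edgeR adjusted p = 6.27e-08) and with 2-AA by 0.63 ± 0.09 (edgeR adjusted p = 2.91e-05) over mock. FER3 differed by -0.41 ± 0.07 (edgeR adjusted p = 0.000123) in 2-AA minus mock and by -0.03 ± 0.07 (edgeR adjusted p = 0.764) in flg22 minus mock. Both were lower with 2-AA than with flg22, FER4 by -0.61 ± 0.08 (edgeR adjusted p = 0.000316) and FER3 by -0.39 ± 0.07 (edgeR adjusted p = 0.00156). In that comparison FER2, with a mock mean of 4.10 CPM, differed by -0.52 ± 0.25 (edgeR adjusted p = 0.192), and the member FER1 by -0.63 ± 0.13. FRO6, which lies beside FRO7 and is close to it in sequence, fell with both agents, with differences of -1.73 ± 0.15 (edgeR adjusted p = 4.47e-07) in 2-AA minus mock and of -0.64 ± 0.15 (edgeR adjusted p = 0.00231) in flg22 minus mock. How counting treated reads shared by such close copies is unknown, and the FRO6 and FRO7 values are uncertain to that extent. YSL3 rose in 2-AA over mock by 1.85 ± 0.10 (edgeR adjusted p = 4.15e-09), and OPT1 by 2.48 ± 0.20 (edgeR adjusted p = 1.8e-07). Both rose with flg22 over mock as well, YSL3 by 1.52 ± 0.10 (edgeR adjusted p = 3.04e-08) and OPT1 by 1.59 ± 0.20 (edgeR adjusted p = 1.21e-05). OPT3 differed by -0.04 ± 0.11 (edgeR adjusted p = 0.793) in 2-AA minus mock and by -0.58 ± 0.11 (edgeR adjusted p = 0.000634) in flg22 minus mock.

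In a list of 43 tested iron genes, 40 were outside the 60. Of the 40, 15 were called lower and 11 higher in 2-AA against mock, 7 lower and 8 higher in 2-AA against flg22, and 17 lower and 12 higher in flg22 against mock. The shares over all genes tested were 31.1% lower and 31.2% higher in 2-AA against mock. They were 7.89% and 7.86% in 2-AA against flg22, and 29.4% and 29.8% in flg22 against mock. The median log2 difference in 2-AA minus flg22 was 0.17 over the 40. ABCG37, which exports coumarins from roots, rose with 2-AA, with 133, 168 and 142 CPM in the 2-AA libraries, 82.6, 65.2 and 64.7 CPM in the flg22 libraries and 53.2, 49 and 47 CPM in the mock libraries. The difference was 1.57 ± 0.11 (edgeR adjusted p = 3.99e-08) in 2-AA minus mock and 1.06 ± 0.11 (edgeR adjusted p = 2.34e-05) in 2-AA minus flg22. F6'H1 was thus low and ABCG37 high in the same 2-AA libraries. BTS, an E3 ligase that acts on iron-response factors, differed by 0.47 ± 0.11 (edgeR adjusted p = 0.00229) in 2-AA minus mock and by 0.65 ± 0.11 (edgeR adjusted p = 0.00146) in 2-AA minus flg22.

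SNG1 (AT2G22990) transfers sinapate from sinapoylglucose to malate, making the UV-absorbing sinapoylmalate of leaves. It had 80.9, 76.7 and 79.8 CPM in the 2-AA libraries, 142, 157 and 112 CPM in the flg22 libraries and 192, 181 and 140.0 CPM in the mock libraries. The 2-AA libraries lay close together, with an SD of 2.18 CPM, and the flg22 and mock libraries overlapped, mock replicate 3 being the lowest of mock. With a flg22 ratio to mock of 0.801, SNG1 was the member closest to the lower limit of the window. SCPL12 lies 28486 bases away in the same cluster of serine carboxypeptidase-like genes, and it had 5.65, 7.85 and 6.94 CPM in the 2-AA libraries, 9.05, 14.5 and 14.8 CPM in the flg22 libraries and 15.1, 14.7 and 15.8 CPM in the mock libraries. The other tested genes of the cluster differed among themselves. SCPL13 had 17.9, 16.6 and 15.8 CPM in the 2-AA libraries, 29.3, 35.8 and 21.7 CPM in the flg22 libraries and 11.5, 10.4 and 6.81 CPM in the mock libraries, and it rose with flg22 by 1.60 ± 0.19 (edgeR adjusted p = 1.08e-05). SCPL11 differed by 0.00 ± 0.12 in 2-AA minus mock (edgeR adjusted p = 0.982). scpl10 had 0.702, 0.876 and 1.48 CPM in the 2-AA libraries, 1.18, 1.34 and 2.37 CPM in the flg22 libraries and 26.6, 20.4 and 24.1 CPM in the mock libraries, and it fell with 2-AA, with a difference of -4.52 ± 0.27 (edgeR adjusted p = 1.09e-08), and with flg22, with a difference of -3.86 ± 0.25 (edgeR adjusted p = 3.82e-08). Reads shared between these near copies make their values uncertain.

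Among genes of growth and the cell wall, GASA6 (AT1G74670), a small gibberellin-regulated peptide, had the lowest ratio to mock of all 60, at 0.174. It had 8.36, 6.59 and 9.59 CPM in the 2-AA libraries, 38.8, 46.9 and 31.2 CPM in the flg22 libraries and 42.7, 62.6 and 35.7 CPM in the mock libraries. The mock libraries spread widely, and the highest 2-AA library was still far below the lowest flg22 library. The log2 difference was -2.52 ± 0.21 in 2-AA minus mock and -0.27 ± 0.19 in flg22 minus mock (SE). GASA1 was higher with flg22, by 1.01 ± 0.13 over mock (edgeR adjusted p = 2.17e-05), with 237, 246 and 196 CPM in the 2-AA libraries, 347, 480.0 and 338 CPM in the flg22 libraries and 205, 205 and 169 CPM in the mock libraries. GASA4 differed by 0.03 ± 0.07 in 2-AA minus mock (edgeR adjusted p = 0.768). GASA5 fell with both agents, with a difference of -3.54 ± 0.32 in 2-AA minus mock (edgeR adjusted p = 5.17e-07), of -1.67 ± 0.33 in 2-AA minus flg22 (edgeR adjusted p = 0.00384) and of -1.87 ± 0.28 in flg22 minus mock (edgeR adjusted p = 6.99e-05).

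PRP4, a proline-rich wall protein, had 78.1, 72 and 112 CPM in the 2-AA libraries, 159, 171 and 197 CPM in the flg22 libraries and 193, 178 and 190.0 CPM in the mock libraries. PRP1, a proline-rich protein of root hairs, had 9.73, 11.7 and 12 CPM in the 2-AA libraries, 17.3, 16.1 and 27.1 CPM in the flg22 libraries and 17.6, 23.7 and 33.7 CPM in the mock libraries, and flg22 replicate 3 and mock replicate 3 were well above the other libraries of their groups. EXPA11, an expansin that loosens walls, had 5.58, 8.72 and 11.1 CPM in the 2-AA libraries, 14, 19 and 19 CPM in the flg22 libraries and 15.1, 21.2 and 18.7 CPM in the mock libraries. DGR2, a wall protein of the DUF642 family, had 89.4, 94.6 and 103 CPM in the 2-AA libraries, 180.0, 189 and 179 CPM in the flg22 libraries and 177, 186 and 159 CPM in the mock libraries. In DGR2 the flg22 mean was above the mock mean, and in the other 3 it was below. AHA7, a plasma membrane proton pump, averaged 11.4 ± 1.36 CPM with 2-AA, 17.7 ± 0.48 CPM with flg22 and 20.9 ± 4.25 CPM in mock (SD, n = 3 each), and the kinesin-like motor gene KICP-02 averaged 15.4 ± 0.837 CPM with 2-AA, 29.5 ± 2.75 CPM with flg22 and 28.3 ± 3.75 CPM in mock.

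The other proton pump genes moved in both directions. HA11 fell, with a difference of -1.71 ± 0.07 in 2-AA minus mock (edgeR adjusted p = 6.75e-10) and of -1.17 ± 0.07 in flg22 minus mock (edgeR adjusted p = 1.96e-08). HA2 differed by 1.23 ± 0.09 in 2-AA minus mock (edgeR adjusted p = 1.11e-07) and by 0.98 ± 0.09 in flg22 minus mock (edgeR adjusted p = 1.09e-06). AHA10, whose mock mean of 2.66 CPM was under the limit of the rule, was nearer to the member AHA7. It differed by -0.84 ± 0.27 in 2-AA minus mock (edgeR adjusted p = 0.0144) and by -0.15 ± 0.26 in flg22 minus mock (edgeR adjusted p = 0.632). Its 2-AA minus flg22 difference was -0.69 ± 0.27 (edgeR adjusted p = 0.108). PRP3 fell with both agents, with a difference of -1.23 ± 0.14 in 2-AA minus mock (edgeR adjusted p = 6.85e-06) and of -0.62 ± 0.14 in flg22 minus mock (edgeR adjusted p = 0.00218). PRP2 fell with both as well, by -0.98 ± 0.09 (edgeR adjusted p = 7.4e-07) and -0.38 ± 0.09 (edgeR adjusted p = 0.0028). In 2-AA minus flg22, PRP3 differed by -0.62 ± 0.15 (edgeR adjusted p = 0.0114) and PRP2 by -0.61 ± 0.09 (edgeR adjusted p = 0.000605). That call of PRP3 was lost without 2-AA replicate 1 (edgeR adjusted p = 0.0525). Of 54 tested expansin and xyloglucan-enzyme genes outside the 60, 37 were called lower and 8 higher in 2-AA against mock, 16 lower and 4 higher in 2-AA against flg22, and 33 lower and 7 higher in flg22 against mock. Of 66 tested arabinogalactan, extensin and proline-rich genes outside the 60, 49 were called lower and 5 higher in 2-AA against mock, 15 lower and 3 higher in 2-AA against flg22, and 43 lower and 6 higher in flg22 against mock. Beside both lists, the shares over all genes tested were 31.1% lower and 31.2% higher in 2-AA against mock. They were 7.89% and 7.86% in 2-AA against flg22, and 29.4% and 29.8% in flg22 against mock. EXPA8, another expansin, fell, with a difference of -2.07 ± 0.21 (edgeR adjusted p = 1.4e-06) in 2-AA minus mock, and its flg22 minus mock difference was -0.36 ± 0.19 (edgeR adjusted p = 0.114).

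Root hair genes as a list summed to 602 to 653 CPM with 2-AA, 598 to 667 CPM with flg22 and 768 to 930 CPM in mock, over 48 genes of which 0 were at 0 in all libraries. The part of root hair cells in the values of PRP1 was not tested. Of 47 tested root hair genes outside the 60, 29 were called lower and 2 higher in 2-AA against mock, and 27 lower and 1 higher in flg22 against mock. In 2-AA against flg22, 4 were called lower and 3 higher. Over all genes tested, 31.1% were called lower and 31.2% higher in 2-AA against mock. In flg22 against mock it was 29.4% and 29.8%, and in 2-AA against flg22 7.89% and 7.86%.

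CER26 (AT4G13840), an acyltransferase-like protein needed to elongate very long acyl chains for leaf wax, had 24.2, 23.4 and 25.3 CPM in the 2-AA libraries, 53.6, 55.6 and 59.5 CPM in the flg22 libraries and 58.6, 60.4 and 61.4 CPM in the mock libraries. The 3 libraries of each group lay within a few CPM, and its log2 difference was -1.31 ± 0.06 (SE) in 2-AA minus mock, the smallest standard error among the 60. CER2, its close relative, differed by -0.48 ± 0.09 (edgeR adjusted p = 0.000388) in 2-AA minus mock and by -0.18 ± 0.09 (edgeR adjusted p = 0.213) in 2-AA minus flg22. CER3, of alkane synthesis, fell with both agents, with differences of -0.93 ± 0.08 (edgeR adjusted p = 1.92e-07) in 2-AA minus mock and of -1.08 ± 0.08 (edgeR adjusted p = 6.75e-08) in flg22 minus mock. Of 56 tested cutin, wax and lipid transfer genes outside the 60, 32 were called lower and 10 higher in 2-AA against mock, 20 lower and 5 higher in 2-AA against flg22, and 25 lower and 14 higher in flg22 against mock. The shares over all genes tested were 31.1% lower and 31.2% higher in 2-AA against mock. They were 7.89% and 7.86% in 2-AA against flg22, and 29.4% and 29.8% in flg22 against mock.

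XPL1 (AT3G18000) encodes a phosphoethanolamine methyltransferase that makes phosphocholine, the head group of phosphatidylcholine. It had 46.3, 38.9 and 38.8 CPM in the 2-AA libraries, 73.8, 80.1 and 108 CPM in the flg22 libraries and 104, 110.0 and 108 CPM in the mock libraries. All 2-AA libraries were below the lowest flg22 library, and flg22 replicate 3 was at the level of mock while the other 2 were lower. LTL1, a GDSL-type lipase named for lithium tolerance, averaged 24 ± 2.73 CPM with 2-AA, 45.3 ± 8.41 CPM with flg22 and 48.4 ± 4.49 CPM in mock (SD, n = 3 each). The fatty acid desaturase family gene AT1G06360 averaged 11.8 ± 1.91 CPM with 2-AA, 21.1 ± 3.82 CPM with flg22 and 22.9 ± 1.6 CPM in mock.

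AT4G15390, an acyltransferase of the HXXXD family with no known substrate in the annotation used, had 30.7, 29.4 and 31.5 CPM in the 2-AA libraries, 115, 131 and 119 CPM in the flg22 libraries and 84.8, 104 and 125 CPM in the mock libraries. Its flg22 mean was the highest relative to mock of all 60, at 1.17, yet its flg22 and mock libraries overlapped. On the side of higher coordinates the next protein-coding gene is the cytochrome P450 gene CYP702A5, 9627 bases away. CYP702A5 is among the 5 lowered genes whose flg22 mean was above the window. The nearer neighbour on the other side, CYP705A4, lies 2117 bases away and was called in no comparison. CYP705A4 differed by 0.11 ± 0.23 (edgeR adjusted p = 0.701) in 2-AA minus mock and by -0.13 ± 0.23 (edgeR adjusted p = 0.762) in 2-AA minus flg22. CYP702A5 had 4.34, 5.03 and 4.9 CPM in the 2-AA libraries, 41.6, 47.6 and 42.2 CPM in the flg22 libraries and 22.4, 20 and 33 CPM in the mock libraries. It was lower with 2-AA than with flg22, with a difference of -3.20 ± 0.17 (log2, SE, edgeR adjusted p = 1.64e-07) and higher with flg22 than in mock by 0.80 ± 0.15 (edgeR adjusted p = 0.000444).

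Several regulators were among the 60 by their annotation. RL4, a small MYB-related protein of the RADIALIS-like family, had 3.38, 2.29 and 2.16 CPM in the 2-AA libraries, 5.05, 8.1 and 7.31 CPM in the flg22 libraries and 6.59, 8.36 and 7.33 CPM in the mock libraries. AT4G32800, of the AP2 type, had 3.32, 2.02 and 2.87 CPM in the 2-AA libraries, 4.36, 6.44 and 5.55 CPM in the flg22 libraries and 5.89, 4.38 and 8.42 CPM in the mock libraries. Its levels were low for the 60, and mock replicate 2 was within the range of flg22. GATA4 averaged 25.1 ± 1.46 CPM with 2-AA, 38.4 ± 4.95 CPM with flg22 and 46.9 ± 2.81 CPM in mock (SD, n = 3 each), and BBX27, a B-box protein, averaged 21.2 ± 1.96 CPM with 2-AA, 35.4 ± 8.25 CPM with flg22 and 37.4 ± 4.79 CPM in mock. NAC003 averaged 7.69 ± 1.28 CPM with 2-AA, 14.5 ± 2.5 CPM with flg22 and 14.4 ± 0.607 CPM in mock, with a flg22 ratio to mock of 1.00. AT1G29270, of the bHLH type, had 3.29, 1.45 and 2.74 CPM in the 2-AA libraries, 5.18, 5.03 and 5.92 CPM in the flg22 libraries and 4.72, 5.2 and 5.26 CPM in the mock libraries. The bHLH-type gene AT1G71200 and the B3-type gene AT4G01580 were also under 10 CPM in every group. RZPF34, a RING zinc finger protein, had 97.2, 90.3 and 113 CPM in the 2-AA libraries, 144, 185 and 129 CPM in the flg22 libraries and 212, 194 and 155 CPM in the mock libraries, and flg22 and mock overlapped.

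Receptor-like kinases were represented by CRK40 and the leucine-rich repeat kinase AT1G29720. CRK40 had 29.3, 35.3 and 28.9 CPM in the 2-AA libraries, 45.7, 47.4 and 42.8 CPM in the flg22 libraries and 54.4, 46.5 and 55.8 CPM in the mock libraries, a 2-AA ratio of 0.597 that made it the member nearest to the limit of 0.6. AT1G29720 had 3.16, 2.25 and 3.58 CPM in the 2-AA libraries, 10.3, 7.49 and 7.34 CPM in the flg22 libraries and 7.87, 8.21 and 7.83 CPM in the mock libraries, and its flg22 mean was above its mock mean. PMSR2, a methionine sulfoxide reductase, had 15.3, 15.7 and 13 CPM in the 2-AA libraries, 40.6, 36.3 and 35.7 CPM in the flg22 libraries and 30.9, 32.8 and 35.5 CPM in the mock libraries, with all flg22 libraries above all mock libraries. Its neighbour PMSR3, 295 bases away on the same strand, rose by 0.65 ± 0.07 (edgeR adjusted p = 3.24e-06) in 2-AA over mock. With flg22, PMSR3 rose by 0.44 ± 0.07 (edgeR adjusted p = 0.000131) over mock. Any reads shared by the PMSR2 and PMSR3 genes make their values uncertain. The EF-hand protein AT2G41090 had 39.7, 41.9 and 44.5 CPM in the 2-AA libraries, 112, 61.1 and 94.2 CPM in the flg22 libraries and 90.3, 88.6 and 106 CPM in the mock libraries, with flg22 replicate 2 apart from the other flg22 libraries. AT1G33700, annotated as a glucosylceramidase-type beta-glucosidase, had 7.98, 8.42 and 10.3 CPM in the 2-AA libraries, 19.1, 19 and 16.5 CPM in the flg22 libraries and 19.1, 23.9 and 23 CPM in the mock libraries, and it overlaps AT1G33680 on the other strand, which had 61.3 CPM with 2-AA, 62.7 CPM with flg22 and 88.7 CPM in mock.

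AT2G28780, annotated as an efflux pump subunit, had 2.42, 2.67 and 4.87 CPM in the 2-AA libraries, 8.89, 7.52 and 12.7 CPM in the flg22 libraries and 10.2, 12.4 and 6.25 CPM in the mock libraries. AT5G50335, with no known function in the annotation, had 3.61, 1.41 and 2.71 CPM in the 2-AA libraries, 6.76, 5.9 and 6.26 CPM in the flg22 libraries and 5.15, 8.61 and 6.38 CPM in the mock libraries. The 3 2-AA libraries of AT5G50335 varied by 42.9% (coefficient of variation), the most among the 60 in that group. Its levels were low, and the cause of that spread was not tested.

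The remaining members spread over many functions, at 2-AA ratios to mock between 0.447 and 0.592. AT2G30930, of unknown function, had 26.5, 24.5 and 24.3 CPM in the 2-AA libraries, 31.2, 44.2 and 34 CPM in the flg22 libraries and 41.1, 45.7 and 40.4 CPM in the mock libraries. PAP7, a purple acid phosphatase, averaged 3.44 ± 0.897 CPM with 2-AA, 6.51 ± 1.32 CPM with flg22 and 7.06 ± 1.03 CPM in mock (SD, n = 3 each). PNT1, a mannosyltransferase of GPI anchor synthesis, averaged 6.64 ± 0.731 CPM with 2-AA, 9.36 ± 1.17 CPM with flg22 and 11.4 ± 1.43 CPM in mock. PAP7 and PNT1 had few counts, and each had a flg22 mean below mock. SAUR6, of a family of small auxin-responsive proteins, averaged 18.6 ± 0.586 CPM with 2-AA, 27 ± 1.4 CPM with flg22 and 31.5 ± 4.91 CPM in mock. AT1G34040, of the pyridoxal phosphate-dependent transferases, averaged 3.92 ± 0.267 CPM with 2-AA, 7.46 ± 1.46 CPM with flg22 and 8.76 ± 0.898 CPM in mock, and AT4G29905, of unknown function, averaged 27.4 ± 1.82 CPM with 2-AA, 53.4 ± 5.16 CPM with flg22 and 53.9 ± 8.7 CPM in mock. AT4G22212, a defensin-like gene that held an AC element, was higher with flg22 than in mock by its mean and averaged 10.5 ± 1.33 CPM with 2-AA, 19.7 ± 1.82 CPM with flg22 and 18.4 ± 6.58 CPM in mock. Hydrolase-type genes were AT1G47480, AT2G39420 and AT3G05180, with 2-AA ratios to mock of 0.582, 0.589 and 0.562. The phosphodiesterase-like AT4G38690 (0.528), the carbohydrate-binding AT1G26450 (0.562), the NPH3-type AT3G26490 (0.569), the RNA-binding AT1G22330 (0.576) and the repeat protein AT2G35130 (0.563) lay close together in that ratio. AT2G25625 had a ratio of 0.541. AT1G13970 (0.555) and AT1G43910 (0.583) both overlap genes of the other strand with counts as high as their own or higher, and 1 mock library of AT1G43910 stood apart, with a coefficient of variation in mock of 45.2%.

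The gene beside a member did not share its pattern as a rule. Of 91 tested protein-coding genes next to a member and outside the 60, 34 were called lower and 28 higher in 2-AA against mock (37.4% and 30.8%). In 2-AA against flg22, 12 were called lower and 11 higher (13.2% and 12.1%), where 7.89% and 7.86% of all genes tested were so called. The gene beside 4CL2 is named after its values were seen. ABCC8, an ABC transporter gene whose annotated end lies 28 bases before the start of 4CL2 on the same strand, had 180.0, 193 and 202 CPM in the 2-AA libraries, 94.8, 88.7 and 89.9 CPM in the flg22 libraries and 86.2, 70.6 and 88.4 CPM in the mock libraries. It rose by 1.23 ± 0.08 (log2, SE, n = 3 each) in 2-AA over mock (edgeR adjusted p = 4.17e-08) and by 1.07 ± 0.08 over flg22 (edgeR adjusted p = 3.41e-06), while 4CL2 was at 0.246 of mock.

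The 60 genes were spread over the genome, with 19 on chromosome 1, 11 on chromosome 2, 9 on chromosome 3, 11 on chromosome 4 and 10 on chromosome 5. The closest pair was AT4G38690 and PRP4, 20648 bases apart with 5 protein-coding genes between them. Gene models of the 60 were a little shorter than those of genes with a mock mean of at least 5 CPM: the median exon length was 1557 against 1878 bases, and the median number of exons 4 against 6. Coding GC content was 44.8% against 44.4%. The spans of 12 of the 60 overlap a gene on the other strand and those of 2, AHA7 and SAUR6, a gene on the same strand.

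Genes near the limits show how gradual the edge of the set is. TIP2, a tonoplast aquaporin, and UGT76C2, a cytokinin glucosyltransferase, were just outside at 2-AA ratios of 0.602 each, next to CRK40 (0.597) and AT2G30930 (0.592) inside. At the lower flg22 limit, AT4G17540 (0.799) and AT4G25790 (0.793) were outside, and SNG1 (0.801) and OPT7 (0.803) inside. At the upper limit, AT4G22755 (1.28) and CYP702A5 (1.74) were outside, and AT4G15390 (1.17) and PMSR2 (1.14) inside. At the level limit, scpl3 (4.99 CPM in mock) and APK4 (4.59 CPM) were outside, and AT1G29270 (5.06 CPM) and AT4G32800 (6.23 CPM) inside. A further 8 genes met the ratios and were left out because a 2-AA library reached another library, among them PP2-A8 and PEL3.

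Lists that mark cell types and organs moved with the groups as well, and their part in the values of the 60 was not tested. Beside their counts, the shares over all genes tested were 31.1% lower and 31.2% higher in 2-AA against mock. They were 7.89% and 7.86% in 2-AA against flg22, and 29.4% and 29.8% in flg22 against mock. Photosystem, antenna and Rubisco genes summed to 77040 to 82840 CPM with 2-AA, 85340 to 96060 CPM with flg22 and 107200 to 114200 CPM in mock, and of 58 tested, 19 were called lower and 2 higher in 2-AA against flg22. Root cell type markers summed to 2207 to 2546 CPM with 2-AA, 1934 to 2411 CPM with flg22 and 2668 to 3187 CPM in mock, with 3 of 27 called in 2-AA against flg22, each of them higher with 2-AA. Cell division genes summed to 897 to 1059 CPM with 2-AA, 1048 to 1229 CPM with flg22 and 1328 to 1453 CPM in mock. Of 79 tested, 37 were called lower and 1 higher in 2-AA against mock, and 28 lower and 6 higher in flg22 against mock. In 2-AA against flg22, 7 were called lower and 0 higher. Xylem and phloem markers summed to 1225 to 1371 CPM with 2-AA, 1189 to 1209 CPM with flg22 and 1190 to 1224 CPM in mock, while 18 of 41 genes were called lower and 3 higher in 2-AA against mock, with a median log2 difference of -0.34. Suberin and Casparian strip genes summed to 711 to 849 CPM with 2-AA, 645 to 677 CPM with flg22 and 562 to 595 CPM in mock, while 16 of 54 genes were called lower and 14 higher in 2-AA against mock, with a median of -0.16. Stomatal lineage and guard cell markers summed to 3005 to 3062 CPM with 2-AA, 4020 to 4297 CPM with flg22 and 2178 to 2191 CPM in mock. Of these 23 genes, 9 were called lower and 6 higher in 2-AA against mock (median -0.16), and 4 lower and 5 higher in flg22 against mock (median -0.01). Trichome markers summed to 67.1 to 71.2 CPM with 2-AA, 74.1 to 76.5 CPM with flg22 and 59.0 to 64.6 CPM in mock, while 3 of 12 genes were called lower and 1 higher in 2-AA against mock, with a median of -0.41. In 2-AA against mock the sums of the xylem and phloem, suberin, stomatal and trichome lists were thus higher, while more of their genes were called lower than higher. Lower calls in the suberin and trichome lists were no more frequent than over all genes tested, and nothing is read from those counts. Of the root cell type, root hair and stomatal markers counted, 0 were at 0 in all libraries, and the 60 held no gene of the root cell type, xylem and phloem, stomatal, trichome, suberin, cell division or photosystem lists. The 60 are a small part of the 21059 genes tested, so lists of this size would hold few of them. Nothing is read from their absence.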

How the data were processed

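RNA was sequenced in 9 libraries, 3 each of seedlings given 2-AA, flg22 or mock. The deposited values are whole read counts per locus for 32833 loci. Per the submitters' processing notes, the authors' tools were edgeR, HISAT2 and Trimmomatic 0.36, and their build was TAIR10. Counting program, annotation and use of strand are stated nowhere in those notes, so overlapping genes and near copies are uncertain. Library totals were 26644996 to 33195007 counts, and 3 counts correspond to 0.0912 to 0.114 CPM, which covers counting error only.

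From these counts, TMM-scaled CPM were computed with edgeR 4.0.16 in R 4.3.3. Genes were tested if they passed filterByExpr (minimum count 10, minimum total 15), which left 21059. The fit was glmQLFit over all 9 libraries with 1 mean per group, and p-values were adjusted by Benjamini-Hochberg over all 21059 genes, with a threshold of 0.05. Alternatives used DESeq2 1.42.0, limma 3.58.1, other scalings, no filter and left-out libraries. On simulated counts with known changes the fit and the rule were checked before use. The replicate numbers of the groups were not stated to pair the libraries.

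The members and all gene lists were chosen with earlier results of these data known. Counts for the lists and values of other genes under the alternatives were added after seeing the data. Members named with full values were the 12 with the lowest ratio of 2-AA to mock, the 12 with the highest mock mean, the 10 in a gene list and the 8 next to a limit of the rule, 29 distinct genes in all. Others were named after their values were seen. The 14 lists came from symbol patterns, 68 namesakes were dropped, and 591 distinct genes of them were tested. Gene positions, neighbours and upstream bases came from the RefSeq annotation of TAIR10.1, in which all 60 members were matched by locus code. One upstream stretch is not reported here.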

Additional observations from a re-analysis of the deposited data

How the results depend on the processing

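The number of members depended on the limits of the rule. It was 24 with the 2-AA mean at most 0.5 of mock, 23 with flg22 within 0.9 to 1 over 0.9 of mock, and 100 with a mock mean of at least 1 CPM. It was 61 with DESeq2 size factors (60 of them shared), 64 with library totals alone (55 shared), 45 with a mock mean of at least 10 CPM, and 68 with overlapping libraries allowed. Leaving out 1 library gave 55 to 86 genes, with 45 to 57 of the 60 among them. Without the 3 libraries rich in chloroplast reads it was 67, with 34 of the 60 among them.

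Members called in flg22 against mock, 11 in all, were 5 with library totals alone and 17 without those 3 libraries. They were 5 to 13 when 1 library was left out. Genes called in 2-AA against flg22, 3317 in all, were 2090 without those 3 libraries and 2204 to 3392 when 1 library was left out. The cause was not tested, beyond the smaller number of libraries in such fits. Other counts of calls stayed within 1.5 times their value: genes called in 2-AA against mock were 11738 to 13198, and genes called in flg22 against mock 10973 to 12566. Members called lower were 59 to 60 in 2-AA against mock and 50 to 58 in 2-AA against flg22. Signs were followed for the 60 members and 188 other genes, and not for the rest of the genes called. Among those followed, no called value changed its sign under the 18 settings. Values near 0 that were not called did in part, such as flg22 against mock in AT2G28780 and NAC003.

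Same-numbered libraries correlated between -0.188 and 0.247 in their deviations. Differently numbered libraries were not compared, so these values cannot show whether the numbers pair the libraries. With the replicate number as a block, 12918 genes were called in 2-AA against mock, 3082 in 2-AA against flg22 and 12264 in flg22 against mock, and 8 members in the last. The 15 members under 10 CPM in mock had fewer counts behind them than the other members. What part counting error and the spread between libraries had in the precision of their ratios was not tested.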
